A study of Mus musculus with 11 samples.

Results

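The classical cadherins and their catenin partners were followed in 3 tissues of the mouse embryo. The set was a fixed list of 10 genes, Cdh1, Cdh2, Cdh3, Cdh4, Cdh6, Cdh11, Ctnna1, Ctnnb1, Ctnnd1 and Jup. Each had 1 probe that named no other gene, so 10 of the 21789 probes with a single gene symbol were members. Expression had been measured on 11 Affymetrix mouse ST arrays. Neural crest was on 5 of them, and neuroepithelium and paraxial mesoderm on 3 each. All came from CD1 outbred embryos at E8.5 with no mutation or treatment named. The cells were cut from frozen sections with a laser, and their RNA was amplified before labelling. The series title speaks of single cells, whereas the labels state neither how many cells nor which embryo an array stands for. The p-values below thus cover no more than array-to-array spread, which may be technical, and they would be too small if arrays of a tissue shared an embryo.

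Classical cadherins hold neighbouring cells together by binding the same cadherin on the next cell through calcium-dependent outer domains. Inside the cell, β-catenin (Ctnnb1) or plakoglobin (Jup) binds the cadherin tail, α-catenin (Ctnna1) links that complex to actin, and p120-catenin (Ctnnd1) binds closer to the membrane and keeps the cadherin at the surface. Early ectoderm carries E-cadherin (Cdh1), and the closing neural tube takes up N-cadherin (Cdh2). Leaving the epithelium as neural crest is classically described as a further exchange towards type II cadherins such as cadherin-11 (Cdh11). Cadherin-6 (Cdh6) is a type II cadherin of dorsal neural folds and early crest. Snai1 is known to repress Cdh1. The comparison of neural crest with neuroepithelium asks for such a cadherin switch.

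Values are deposited ratios to a reference that each probe has for itself. A ratio near 1 on every array is given alike by a gene silent in all samples, a gene equally active in all and a probe that did not respond, so ratios hold no expression level. A high ratio cannot tell apart more cells of a type from more RNA per cell. The number of probes at least 4-fold above their reference was lowest on paraxial mesoderm array 3 (398) and highest on array 1 of that tissue (1716), and arrays of each tissue lay on both sides of the middle of that range. Among marker lists, 1 of the 6 for neural crest, Snai1, was high on all 5 arrays of that tissue. On each neuroepithelium array 4 to 6 of 9 surface ectoderm markers were high, and all 7 paraxial mesoderm markers stayed within 2-fold on every array. Of 6 neuroepithelium markers, only Nes was 4-fold off anywhere, on neural crest array 3 (8.48). Paraxial mesoderm array 2 was high for 4 of the 9 surface ectoderm markers (Krt8, Krt18, Cldn6 and Cldn7) and not for Epcam. Paraxial mesoderm array 1 was high for all 6 primitive erythroid markers. Ratios near 1 on all arrays leave the mesoderm label without a check. The neuroepithelium label likewise had no check from its own markers. Of the surface ectoderm list, Epcam, Krt8, Krt18 and Cldn7 were high on all 3 of its arrays. Among these arrays Cldn6 (14.3) and Grhl2 (25.0) were high only on array 3, and Grhl3 (60.0) only on array 2. Trp63 and Tfap2c stayed at 0.956 to 1.11 in neuroepithelium. For the neural crest label, Snai1 was the only marker of 6 high on all 5 arrays, so a check at 4-fold on every array rested on 1 gene. Sox9 was high on neural crest arrays 2 (17.2) and 5 (21.3) alone, and Sox10 on array 5 (7.67) alone. Without the 4-fold limit, Sox9 in neural crest (lowest 1.21) lay above neuroepithelium (highest 1.03) and paraxial mesoderm (highest 1). Sox10 (lowest 1.10) lay above paraxial mesoderm (highest 1) but overlapped neuroepithelium (highest 1.16). Groups did not overlap for 2.95% of all probes against neuroepithelium and 2.63% against paraxial mesoderm, and neither gene passed in limma. Foxd3 peaked at 3.99, on neural crest array 4. The ratios of Tfap2a and Ets1 ran only from 0.945 to 1.19 over the 11 arrays.

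No cadherin switch appeared in these ratios. The group of 10 split into 6 probes that stayed within 2-fold of their reference on all 11 arrays (Cdh1, Cdh2, Cdh3, Cdh4, Cdh11 and Ctnnd1) and 4 that were at least 4-fold off on 1 array or more (Cdh6, Ctnnb1, Jup and Ctnna1). Over all single-symbol probes, 71.9% stayed within 2-fold throughout and 24.8% were at least 4-fold off somewhere, so the 6 and 4 of 10 were near the background. Of the cadherins 5 of 6 were flat, and of the catenins 1 of 4. High arrays were found for Jup, Ctnna1 and Cdh6, 3 of 10 beside 21.0% of all probes, and low ones for Ctnnb1.

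**Figure D1:**
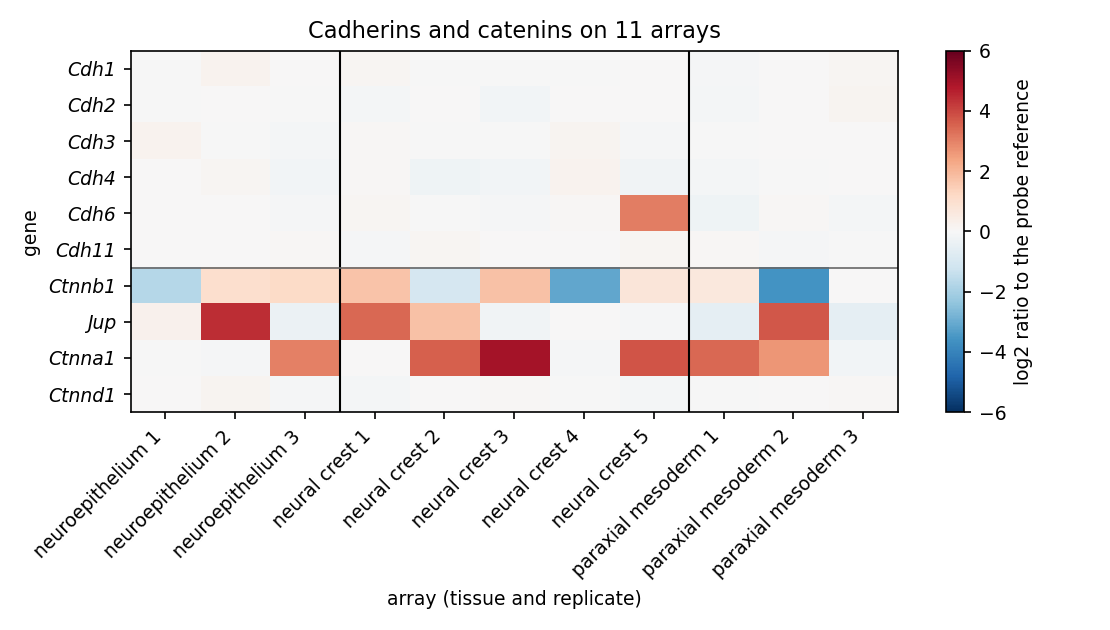
Log2 ratio of each member (rows, cadherins above the line and catenins below) on each of the 11 arrays (columns, tissues separated by vertical lines), from blue (below the reference) through white (at it) to red (above). Cdh6 is white except on neural crest array 5, 3 of the 4 catenins change from array to array within a tissue, and the other 6 rows are close to white.

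In limma, 0 of the 10 members differed between neural crest and neuroepithelium, where 0.0275% of all probes were called, or between neural crest and paraxial mesoderm (0.00918% called). The same held for paraxial mesoderm against neuroepithelium (0.0138% called) and for the F test among the 3 tissues (0.0275% called). At an unadjusted p below 0.05 the count was also 0 in all 4, the smallest unadjusted p of limma being 0.300 for Ctnnd1 in neural crest against paraxial mesoderm. The tissues overlapped for all 10 members in each comparison. Groups did not overlap for 2.95% of all probes between neural crest and neuroepithelium, 2.63% between neural crest and paraxial mesoderm and 6.86% between paraxial mesoderm and neuroepithelium. The median log2 difference of the 10, neural crest minus neuroepithelium, was -0.04, with 3 of 10 positive, beside 0.00 and 49.7% positive over all probes.

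Cdh1, the E-cadherin of epithelia, had ratios of 0.996, 1.15 and 1 in neuroepithelium. On the 5 neural crest arrays they were 1.08, 0.980, 0.985, 0.996 and 1.01, and in paraxial mesoderm 0.940, 1.02 and 1.08. The highest was neuroepithelium array 2, the lowest paraxial mesoderm array 1, and the ranges of the tissues lay over each other. The log2 difference, neural crest minus neuroepithelium, was -0.05 (SE 0.06, 95% interval -0.20 to 0.09, limma adjusted p = 1.00). On the same neuroepithelium arrays the epithelial adhesion gene Epcam had ratios of 41.9, 38.8 and 37.4 against 0.944 to 1.03 in neural crest (limma adjusted p = 6.3e-11, 0.00657 with an intensity trend, all 3 arrays above all 5).

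Cdh2, the N-cadherin of the neural tube, had ratios of 0.994, 1.01 and 0.983 in neuroepithelium. They were 0.921, 1, 0.903, 1.02 and 1.02 on the neural crest arrays and 0.922, 1.01 and 1.13 in paraxial mesoderm. The tissues overlapped, with a log2 difference of -0.04 between neural crest and neuroepithelium (SE 0.07, 95% interval -0.20 to 0.12, limma adjusted p = 1.00). Taken as the balance of the pair, log2 Cdh2 minus log2 Cdh1 was -0.07 ± 0.10 (SD, n = 3) in neuroepithelium, -0.06 ± 0.12 (n = 5) in neural crest and 0.01 ± 0.05 (n = 3) in paraxial mesoderm. The means of neural crest and neuroepithelium lay closer together than the SD of either, and the ranges of all 3 tissues overlapped.

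Cdh3, the P-cadherin of surface epithelia and placenta, ran from 0.926 to 1.16 over the 11 arrays. Cdh4, R-cadherin, ran from 0.847 to 1.14 and had the widest spread of the flat members (SD of log2 0.14). Cdh11, a cadherin of mesenchyme, ran from 0.944 to 1.08 and had the narrowest (SD 0.07). Over Cdh1, Cdh2, Cdh3, Cdh4, Cdh11 and Ctnnd1 and the 3 pairs of tissues, the log2 differences lay between -0.07 and 0.05, and their 95% intervals between -0.31 and 0.27. A 2-fold difference in ratio was outside every one of these intervals, which bound the ratio and not the RNA if the probe did not respond. The median SD of log2 over the 11 arrays was 0.12 for the 10 members and 0.13 for all single-symbol probes.

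Another 3 probes named Cdh11 together with 6820431F20Rik and 2610005L07Rik, so no level of Cdh11 could be taken from them. Probe 10457223 had ratios of 13.5 on neuroepithelium array 3, 26.8 and 15.8 on neural crest arrays 3 and 5, and 4.65 and 9.23 on paraxial mesoderm arrays 1 and 3. Probe 10577412 had 9.26, 12.7, 11.7, 3.77 and 4.08 on the same arrays, and both lay between 0.912 and 1.01 on the other 6. The third reached 1.64 at most. The probe naming Cdh11 alone was at 1.04, 1.01, 1.08, 1.04 and 0.974 on those 5 arrays.

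**Figure D2:**
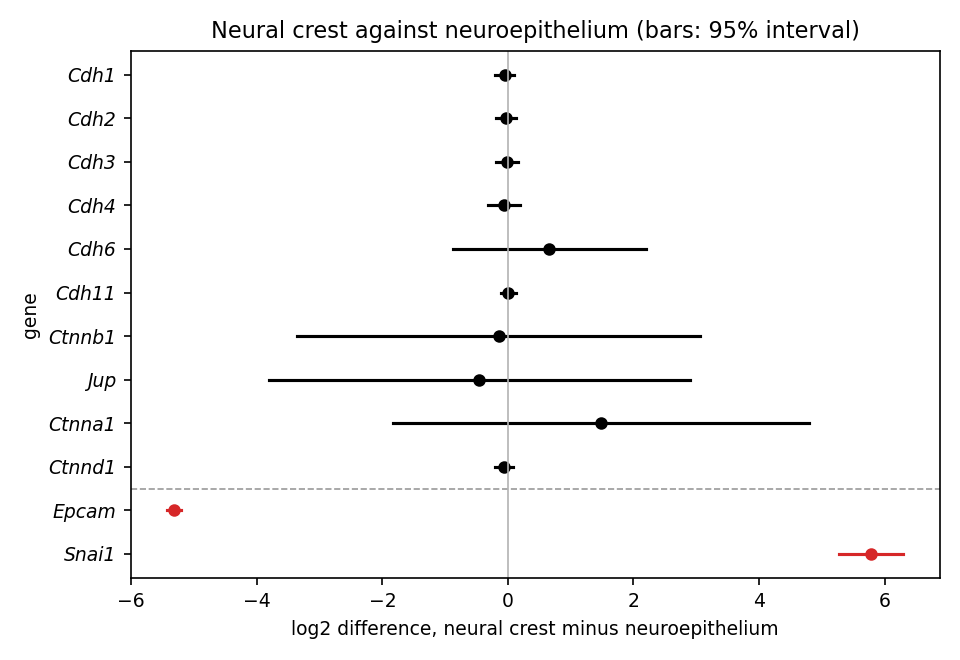
Log2 difference, neural crest minus neuroepithelium (horizontal axis), for the 10 members and, under the dashed line, Epcam and Snai1 for scale; points are estimates of limma over 11 arrays, bars are 95% intervals and red marks an adjusted p below 0.05. All 10 member intervals include 0, narrowly around it for 6 genes and over several log2 units for Ctnnb1, Jup and Ctnna1.

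Cdh6, a type II cadherin of dorsal neural folds and early crest, was high on 1 array. Its ratios were 1.01, 1.00 and 0.955 in neuroepithelium, 1.09, 0.987, 0.963, 1.04 and 8.51 in neural crest, and 0.837, 1.06 and 0.934 in paraxial mesoderm. Neural crest array 5 thus stood alone. Of the other 4 neural crest arrays, 3 lay in the range of the other tissues and array 1 just above it. The log2 difference from neuroepithelium was 0.66 (SE 0.68, 95% interval -0.88 to 2.20, limma adjusted p = 1.00), and 0.05 without that array. Neural crest array 5 had the second most high probes, 1598, of which 213 (13.3%) stayed within 2-fold on the other 10 arrays, as Cdh6 did. The part of that excess in the Cdh6 value was not tested. The probes closest to Cdh6 over the 11 arrays by Pearson correlation were those of Usp3, Dusp28 and Dhx40 (each 1.00), which were at 55.2, 50.6 and 34.9 on that array. A correlation set by 1 array says only that they peaked there too.

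Ctnnb1, encoding the β-catenin that both binds cadherin tails and carries Wnt signals to the nucleus, moved in both directions within each tissue. Its ratios were 0.307, 2.03 and 2.24 in neuroepithelium. In neural crest they were 3.23, 0.504, 3.39, 0.113 and 1.68, and in paraxial mesoderm 1.55, 0.0829 and 1. Neural crest array 4 and paraxial mesoderm array 2 were at least 4-fold low, while arrays of the same tissues lay above 1. Only 5.3% of all single-symbol probes were that low on any array. The log2 means were 0.16 ± 1.62 (SD, n = 3), 0.01 ± 2.08 (n = 5) and -0.99 ± 2.28 (n = 3), and the tissue order had no support beyond this spread. The log2 difference between neural crest and neuroepithelium was -0.15 (SE 1.41, 95% interval -3.35 to 3.06, limma adjusted p = 1.00). The closest probes were 2 of the phosphatase gene Acp1 (Pearson r = 0.89 and 0.86 over 11 arrays), also low on neural crest array 4 (0.0868 and 0.0491) and paraxial mesoderm array 2 (0.163 and 0.122), and that of Clec7a (r = 0.84), which stayed between 0.948 and 1.07.

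Jup, encoding plakoglobin, which can take the place of β-catenin on classical cadherins and also sits in desmosomes, was at least 4-fold high on 1 array of every tissue. Its ratios were 1.19, 21.5 and 0.778 in neuroepithelium, 11.05, 3.38, 0.874, 1 and 0.942 in neural crest, and 0.694, 13.4 and 0.688 in paraxial mesoderm. Those arrays were neuroepithelium array 2, neural crest array 1 and paraxial mesoderm array 2, and the tissues overlapped over nearly their whole range. The log2 difference between neural crest and neuroepithelium was -0.45 (SE 1.48, 95% interval -3.81 to 2.90, limma adjusted p = 1.00), and 1.04 without neuroepithelium array 2. On paraxial mesoderm array 2 the Jup ratio was high and the Ctnnb1 ratio at its lowest (0.0829). On neuroepithelium array 2 and neural crest array 1 both ratios were above 1 (Ctnnb1 at 2.03 and 3.23). The probes closest to Jup in shape were those of Fndc7, Gata4 and Casc1 (Pearson r = 0.90, 0.89 and 0.89 over 11 arrays), but their ratios ran only from 0.865 to 1.43.

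Surface ectoderm markers were high on some of the arrays with high Jup. Of the 9 markers, 5 were high on neuroepithelium array 2, 4 on paraxial mesoderm array 2 and 0 on neural crest array 1. The 4 on paraxial mesoderm array 2 were Krt8, Krt18, Cldn6 and Cldn7. Epcam, Grhl2, Grhl3, Trp63 and Tfap2c were at 0.942 to 1.04 on that array. Neuroepithelium arrays 1 and 3 had 4 and 6 of them high with Jup at 1.19 and 0.778. The summed log2 ratio of the list was 23.6 to 30.3 in neuroepithelium, -1.57 to 6.83 in neural crest and -2.60 to 22.7 in paraxial mesoderm, no marker was listed at 0, and Trp63 alone was within 2-fold on all arrays. The part of surface ectoderm cells in the Jup values was not tested.

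**Figure D3:**
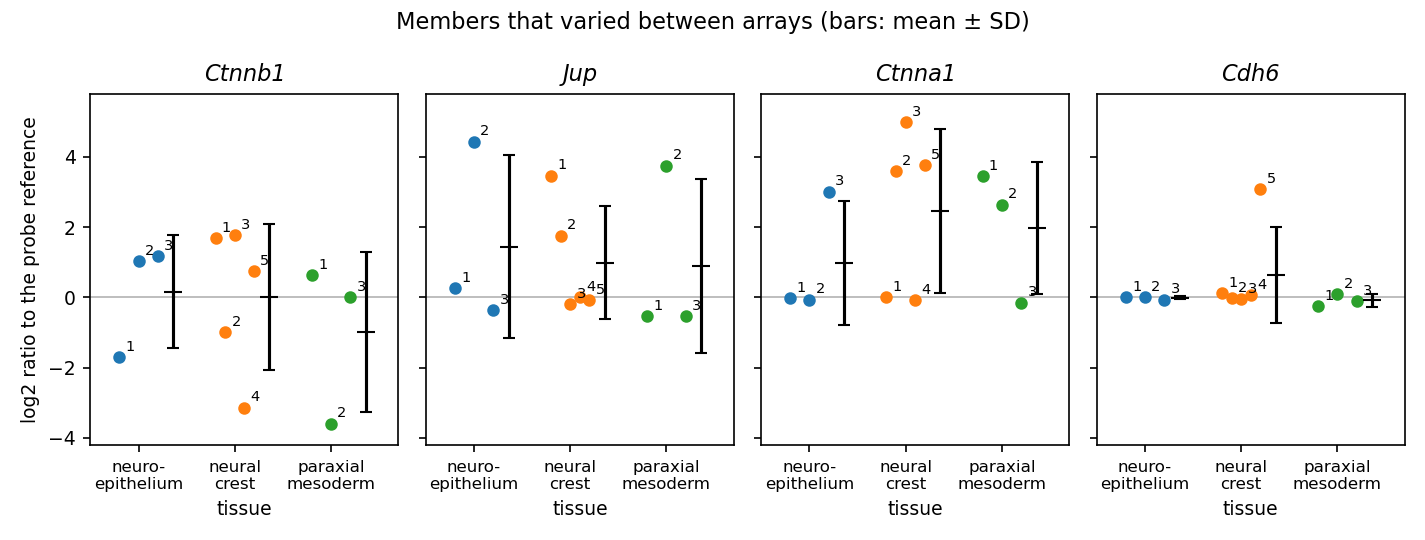
Log2 ratio (vertical axis) of the 4 members at least 4-fold off on some array, by tissue; each point is 1 array labelled with its replicate number, and the bar beside it is the mean ± SD (n = 3, 5 and 3). Every panel shows tissues that overlap: Ctnnb1 spreads in both directions, Jup and Ctnna1 have high arrays in each tissue, and Cdh6 has 1.

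Ctnna1, encoding the αE-catenin that ties the complex to actin, was high on 6 arrays spread over all tissues. It had ratios of 0.982, 0.954 and 8.04 in neuroepithelium, 1, 12.1, 31.5, 0.944 and 13.5 in neural crest, and 10.9, 6.24 and 0.900 in paraxial mesoderm. Values were either at 1.00 or lower or at 6.24 or higher, with none between. Neural crest arrays 2, 3 and 5 were high and arrays 1 and 4 were not. The log2 means were 0.97 ± 1.76 (SD, n = 3) in neuroepithelium, 2.45 ± 2.34 (n = 5) in neural crest and 1.98 ± 1.89 (n = 3) in paraxial mesoderm, in an order within the spread. The log2 difference of 1.48 between neural crest and neuroepithelium (SE 1.46, 95% interval -1.83 to 4.79, limma adjusted p = 1.00) ran from 0.85 to 2.50 when 1 array was left out.

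The 6 arrays with high Ctnna1 were the 6 with the most high probes of all genes. These were paraxial mesoderm arrays 1 (1716) and 2 (849), neural crest arrays 5 (1598), 2 (1221) and 3 (1118) and neuroepithelium array 3 (1200). The other 5 arrays had 398 to 766. Of 124 probes high on exactly 6 arrays, 7 (5.65%) were high on exactly these, Ctnna1 among them, and both measures come from the same arrays. The part of this array-wide difference in the Ctnna1 values was not tested. Closest to Ctnna1 were the probes of Rheb (Pearson r = 0.96 over 11 arrays) and 2 of the chromatin remodelling gene Smarce1 (r = 0.96 and 0.95). Rheb, a small GTPase gene, had 1 to 3.32 on the 6 arrays and 0.0284 to 0.0843 on the others. The closer Smarce1 probe had 19.8 to 35.7 on the 6 arrays and 0.505 to 1.01 on the others. Jup and Ctnna1 were the members high in all 3 tissues, a pattern of 769 probes (3.53%).

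**Figure D4:**
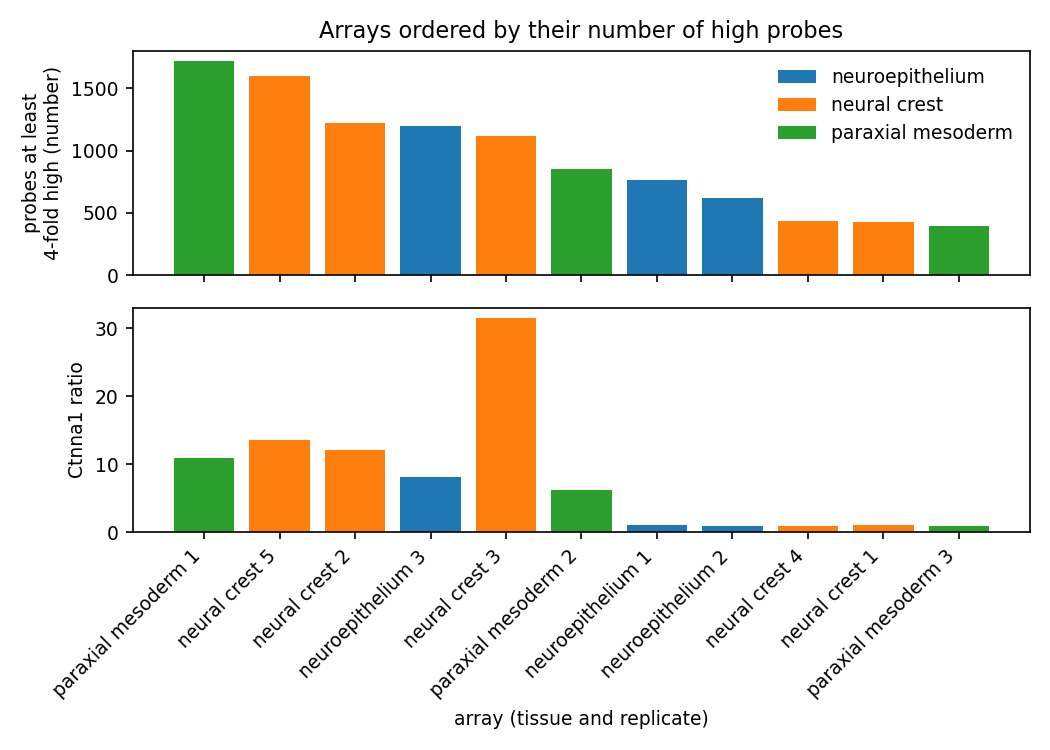
Number of single-symbol probes at least 4-fold high (upper panel) and ratio of Ctnna1 (lower panel) on each array, ordered by the upper panel and coloured by tissue. The 6 arrays with 849 to 1716 high probes have Ctnna1 ratios of 6.24 to 31.5, and the 5 arrays with 398 to 766 have 0.900 to 1.

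Ctnnd1, encoding p120-catenin, was the flat catenin, with ratios from 0.919 to 1.10. It differed by -0.07 on the log2 scale between neural crest and neuroepithelium (SE 0.06, 95% interval -0.21 to 0.07, limma adjusted p = 1.00). The catenins therefore differed in how far their ratios moved, from an SD of log2 of 0.08 for Ctnnd1 to 1.88 for Ctnnb1, 1.91 for Jup and 1.98 for Ctnna1 over the 11 arrays, a description that was not tested.

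Arrays were split by their median ratio, a rule read from the values and given by no label. The 8 of 11 with a median of 1 were taken to set the probe references. Of 28856 probes with values, 26141 were exactly 1 on 1 of these arrays. The others were neuroepithelium array 2 and neural crest arrays 3 and 5. Within the 8, the log2 difference between neural crest and neuroepithelium was -0.32 for Ctnna1, 1.79 for Jup, -0.54 for Ctnnb1 and 0.08 for Cdh6. Within the other 3 it was 4.43 for Ctnna1, -4.57 for Jup, 0.23 for Ctnnb1 and 1.52 for Cdh6. The direction was opposite for Ctnna1, Jup and Ctnnb1, with 2 to 3 neural crest arrays against 1 or 2. Paraxial mesoderm had arrays in the first set only.

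Promoter sequence is shown for the varying members with an entry in the promoter set used (Cdh6, Ctnnb1 and Jup). It is given because the neural crest arrays were high for Snai1, a repressor that binds the E-box letters CAGGTG. Of the 10 members 4 had an entry in that set, Ctnnd1 being the other. Each run is the 250 bases before a gene start in build GRCm38.p6, and capitals mark the E-box core CANNTG, which reads the same on both strands.
Cdh6 chr15:13173676-13173925 (- strand): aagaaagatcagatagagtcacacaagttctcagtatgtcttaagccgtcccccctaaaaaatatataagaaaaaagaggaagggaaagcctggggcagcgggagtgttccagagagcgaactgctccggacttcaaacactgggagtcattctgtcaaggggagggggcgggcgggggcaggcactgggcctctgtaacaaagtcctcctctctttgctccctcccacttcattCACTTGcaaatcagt
Ctnnb1 chr9:120933150-120933399 (+ strand): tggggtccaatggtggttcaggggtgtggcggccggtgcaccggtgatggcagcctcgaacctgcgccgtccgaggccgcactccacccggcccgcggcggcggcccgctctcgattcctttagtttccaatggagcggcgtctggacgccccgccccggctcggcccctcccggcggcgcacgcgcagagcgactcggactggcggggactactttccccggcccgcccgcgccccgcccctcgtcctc
Jup chr11:100397791-100398040 (- strand): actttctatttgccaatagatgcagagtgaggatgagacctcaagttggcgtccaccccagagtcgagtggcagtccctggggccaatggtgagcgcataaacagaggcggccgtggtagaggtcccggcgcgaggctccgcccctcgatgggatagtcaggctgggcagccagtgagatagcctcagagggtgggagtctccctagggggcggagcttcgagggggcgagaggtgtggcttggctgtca
Neither CAGGTG nor its reverse complement CACCTG, both forms of CANNTG, was in the windows of these 4 genes. Over all 32851 windows of this length, 17.2% held either and 66.2% held CANNTG. Cdh6 held 1 core and Jup and the Ctnnb1 window shown 0. A match describes letters and no site, and these letters may lie outside the window.

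Further genes of the junction were read from lists, 64 of 66 with a probe. Of their 66 probes, 16 (24.2%) moved at least 4-fold on 1 array or more, beside 24.8% of all probes. Snai1 alone was called, higher in neural crest than in neuroepithelium (limma adjusted p = 1.0e-05) and in paraxial mesoderm (2.9e-05). Its ratios were 51.0, 47.0, 82.1, 54.9 and 41.2 on the 5 neural crest arrays and 0.800 to 1.17 on the other 6. With an intensity trend neither call held (limma adjusted p = 0.115 and 0.562). Snai1 thus separated every neural crest array from the other 6, which overlapped between neuroepithelium and paraxial mesoderm. Cdh1, its known target, stayed at 0.940 to 1.15. Ratios near 1 on every array cannot tell a silent or equally active gene from a probe that did not respond. Repression of Cdh1 was therefore not tested.

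The other cadherins were as flat as most members. All 14 probes of 12 further type I and type II cadherins, among them the endothelial Cdh5 and the crest and glial Cdh19, stayed within 2-fold on all arrays, as did 5 of 7 further catenins and p120 relatives. Pkp4, a p120 relative, was high on neural crest arrays 3 (13.1) and 5 (14.1). Ctnnbip1, which blocks β-catenin from Tcf factors, was high on neuroepithelium array 2 (4.83). None of the 4 nectins, adhesion molecules that form junctions beside cadherins, was 4-fold off.

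Of 10 actin linkers of the junction, 2 were 4-fold off. Zyx, encoding the focal adhesion and junction protein zyxin, was 4.42 and 14.0 on neuroepithelium arrays 1 and 2, 18.3, 17.5 and 7.50 on neural crest arrays 2, 3 and 5, and 8.44 on paraxial mesoderm array 1. Vasp, which promotes actin growth, was 9.87 on paraxial mesoderm array 2. Vcl, encoding the vinculin that binds α-catenin under tension, ran from 0.901 to 1.28.

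Of 8 desmosomal cadherin and plaque genes, 3 were 4-fold off. Pkp2, a plakophilin, was 25.1 on paraxial mesoderm array 1 and 56.3 on array 2, and Pkp3 was 27.1 on array 2, the array on which Jup was 13.4. Ppl, encoding periplakin, was 8.10 on neuroepithelium array 2, where Jup was 21.5. The other 5 stayed within 2-fold on every array, including Dsp, the plaque protein desmoplakin. On paraxial mesoderm array 2, 4 of 9 surface ectoderm markers (Krt8, Krt18, Cldn6 and Cldn7) were high and Epcam was not. The part of surface ectoderm cells in these values was not tested.

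Among 7 genes of cadherin shedding and turnover, 3 were 4-fold off. Adam10, a protease that cuts cadherin outer domains, was 5.58 on paraxial mesoderm array 1, and Cbll1, encoding the E-cadherin ubiquitin ligase Hakai, was 14.6 there. Ptpn1, a tyrosine phosphatase, was 12.5 on neural crest array 2 and 22.3 on paraxial mesoderm array 2. On paraxial mesoderm array 1 all 6 primitive erythroid markers were high, with a summed log2 ratio of 38.9 against -0.37 to 0.87 on the other arrays, and their part was not tested.

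Of 9 genes that control β-catenin or pair with it in the nucleus, 3 were 4-fold off. Csnk1a1, the kinase that starts β-catenin breakdown, was low on neural crest arrays 1 (0.0240) and 4 (0.0253), where Ctnnb1 was 3.23 and 0.113. Tcf7l1, a Tcf factor that mostly represses, was 4.80 on neuroepithelium array 3 and 32.4 on neural crest array 2. Btrc, part of the ubiquitin ligase for β-catenin, was 6.22 on neural crest array 2 and 10.2 on paraxial mesoderm array 1.

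Of 7 repressors that act on cadherin genes, Twist1 and Tcf4 varied beside Snai1. Twist1 was 5.92 on neuroepithelium array 2 and 8.79 and 27.3 on neural crest arrays 2 and 5, and Tcf4 was 12.3 on neuroepithelium array 3. Snai2, Zeb1, Zeb2 and Tcf3 were 4-fold off on no array. None of these genes other than Snai1 passed in limma in any comparison.

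**Figure D5:**
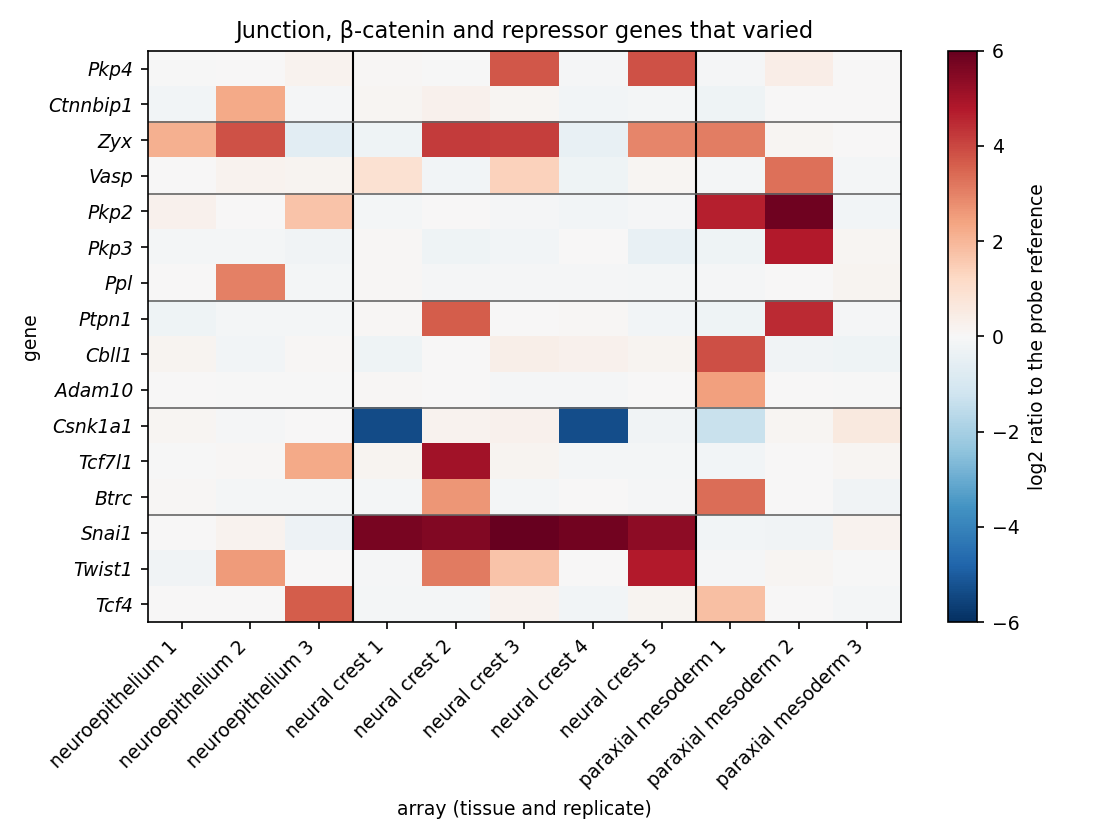
Log2 ratio of the 16 junction, β-catenin and repressor genes at least 4-fold off on some array (rows, lists separated by lines) on the 11 arrays (columns). Snai1 is the one row that is red on all 5 neural crest arrays and near white on the other 6, and the remaining rows are coloured on 1 to 6 arrays without following a tissue.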

How the data were processed

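Expression was measured on 11 arrays, grouped by the labels into neuroepithelium (3), neural crest (5) and paraxial mesoderm (3). The submitters' processing notes name RMA and build mm9, without versions. What the authors deposited were linear ratios, a scale read from the values: the median was 1 on 8 arrays and near 1 on the other 3. The lowest ratio was 0.01. The sources used here do not give how the authors made the scaling, and the files give no intensity or depth.

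Of 35557 probes listed, 6701 were blank, and 21789 of the 28856 with values had 1 symbol in the platform annotation (21698 matched by Entrez identifier to GRCm38.p6, 0 symbols changed). Log2 was taken without a pseudocount. Group means were fitted over all 11 arrays with lmFit and eBayes in limma 3.58.1 under R 4.3.3, two-sided, with Benjamini-Hochberg adjustment over the 21789 probes and a threshold of 0.05. No intensity trend was used, since ratios hold no intensity, and the trend is an alternative. The fit was tested on simulated data with normally distributed noise and constant shifts. That setting does not cover probes that were high on some arrays of a tissue and near 1 on others.

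The members and gene lists, the 4-fold limit and the tests were chosen with earlier results of these data known. All members were named. A gene of the other lists was named if it passed or was at least 4-fold off on an array, and for each member that far off the 3 most correlated probes were named. The alternatives were the prior variance, array scaling, a floor of 0.1, a filter, the probe of a gene and the arrays fitted. Further ones were array weights, the split of arrays by their median ratio, a replicate block and leaving out each array.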

Additional observations from a re-analysis of the deposited data

Results flagged for a closer look

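In groups of 4 to 10 arrays, which here means neural crest alone, 26 probes were checked for an array far from the rest. The gap to the nearest array, as a share of the whole range in log2, exceeded 0.71 for 4 of them. It was 0.942 for Cdh6 on neural crest array 5 (ratio 8.51), 0.935 for Ptpn1 (12.5), 0.944 for Tcf7l1 (32.4) and 0.950 for Btrc (6.22), the last 3 all on neural crest array 2. About 1 in 20 groups passes this limit by chance, and the junction genes other than the members had been picked for an array far from the reference.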

How the results depend on the processing

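The count of members called was 0 in each of the 4 tests under every alternative that ran it. The smallest limma adjusted p of any member difference between tissues was 0.698. The filter kept only probes at least 2-fold off on an array, so the 6 flat members were not tested there. With only the arrays of the compared pair there was no F test. Of 672 member differences recomputed, 65 changed sign, none of them past the threshold in either form. The limits are the number of arrays and the unknown level behind a ratio near 1.

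The number of all probes called moved more. With an intensity trend it was 2 for neural crest against neuroepithelium (6 otherwise), 0 against paraxial mesoderm (2 otherwise) and 2 among the tissues (6 otherwise). With quantile normalization it was 1 for neural crest against paraxial mesoderm. With only the arrays of the compared pair it was 10 for neural crest against neuroepithelium. With only the arrays taken to set the reference it was 16 there, 13 for paraxial mesoderm against neuroepithelium (3 otherwise) and 14 among the tissues. Leaving out 1 array gave 5 to 20, 1 to 45 and 3 to 40 for the pairs and 5 to 41 among the tissues, the highest without paraxial mesoderm array 3 except for 20 without neuroepithelium array 2.

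Signs changed as follows, as log2 differences whose cause was not tested. With only the arrays taken to set the reference, neural crest minus neuroepithelium was 0.027 for Cdh1, 0.0222 for Cdh3 and 0.0893 for Cdh4. It was -0.0215 for Cdh11, -0.32 for Ctnna1 and 1.79 for Jup. Neural crest minus paraxial mesoderm was 0.0079 for Cdh1, 0.0326 for Cdh4 and -0.81 for Ctnna1, and paraxial mesoderm minus neuroepithelium 0.0191 for Cdh1, 0.0567 for Cdh4 and 0.95 for Jup. With a block for those arrays, neural crest minus paraxial mesoderm was -0.13 for Ctnna1 and -0.0612 for Jup, and paraxial mesoderm minus neuroepithelium 0.25 for Cdh6. With array weights, Ctnnb1 was 0.33 in neural crest minus neuroepithelium and Jup -1.63 in neural crest minus paraxial mesoderm, while paraxial mesoderm minus neuroepithelium was 0.0025 for Cdh4, 0.0225 for Cdh6 and 1.43 for Jup.

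The replicate block gave -0.0167 for Cdh11, 0.66 for Ctnnb1 and 0.23 for Jup in neural crest minus neuroepithelium, and 0.0030 for Cdh1 in neural crest minus paraxial mesoderm. Under this replicate block 6, 3, 2 and 5 probes were called. Arrays of the same number had correlations of -0.15 to 0.05 between their deviations over 9 pairs. Pairs of different number were not compared, so these values cannot decide whether arrays of the same number shared an embryo. The labels do not state it.

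Leaving out 1 array changed the sign in these ranges. Neural crest minus neuroepithelium ran from -0.0873 to 0.0166 for Cdh1, -0.0847 to 0.077 for Cdh3, -0.13 to 0.0123 for Cdh4, -0.0189 to 0.0308 for Cdh11, -1.08 to 0.64 for Ctnnb1 and -1.35 to 1.04 for Jup. Neural crest minus paraxial mesoderm ran from -0.0551 to 0.0457 for Cdh1, -0.14 to 0.01 for Cdh2, -0.0044 to 0.0532 for Cdh3, -0.59 to 1.21 for Ctnna1, -0.30 to 1.81 for Ctnnb1 and -0.62 to 1.52 for Jup. Paraxial mesoderm minus neuroepithelium ran from -0.0973 to 0.0191 for Cdh1, -0.0468 to 0.10 for Cdh2, -0.11 to 0.05 for Cdh3, -0.0876 to 0.0567 for Cdh4, -0.16 to 0.0127 for Cdh6, -2.08 to 0.15 for Ctnnb1, -0.0498 to 0.0601 for Ctnnd1 and -1.97 to 0.95 for Jup.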
